A study of Homo sapiens with 12 samples.

Results

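Of 13937 genes measured in WI-38, a fibroblast line from human embryonic lung, 8 are described here. They are among the many genes whose level after YAP/TAZ depletion depended on which other siRNA the cells had received, and they are OXTR, MEST, SHISA3, CDC42EP3, KCNJ2, LBH, RASL11B and CLDN11. They were chosen by measured values of these libraries, namely the largest positive interactions of the YAP/TAZ siRNAs with cGAS or STING siRNAs, or a large rise with combined STING and YAP/TAZ depletion. An interaction here is the log2 difference made by the YAP/TAZ siRNAs in the presence of the cGAS or STING siRNA, minus the same difference without it. A positive value means that a gene was lowered less, or raised, in the second background. The values that chose the genes are therefore given as a description with no test.

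Transcript levels were measured by sequencing the 3′ ends of messenger RNA in 12 libraries, 2 for each of 6 groups. All cells were WI-38 fibroblasts transfected with small interfering RNAs (siRNAs), which lower the messenger RNA they match. The control group received only the control siRNA (siAS). The YT group received this control siRNA together with YAP and TAZ siRNAs. The cGAS and STING groups received the control siRNA together with cGAS siRNA or STING siRNA. The cGAS_YT and STING_YT groups received YAP and TAZ siRNAs in place of the control siRNA. Every group thus received siRNA of some kind, and none was left untransfected. In the library titles the cGAS and STING siRNA names always carry a multiplier, and the control and YAP/TAZ siRNA names carry none. The titles do not say what the multiplier means, and its part in the interactions was not tested. Levels are in CPM, that is, reads relative to the size of the library, with a further scaling factor for each library, and a difference is on the log2(CPM + 1) scale ± SE from a limma fit of all 12 libraries, which understates the change of weakly expressed genes. A call means an adjusted p under 0.05 by limma with Benjamini-Hochberg adjustment over the 13894 genes tested. Nothing in the labels ties a replicate to a separate culture, so the SE and p-values measure how far these samples vary, and that variation could be technical alone.

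The reads recovered from the deposited values summed to between 17790774 and 20650727 per library over the 13937 genes. All 12 fibroblast markers, among them COL1A1, DCN and PDGFRA, were measured. The siRNAs lowered their own targets. In YT, cGAS_YT and STING_YT cells, YAP1 stood at 13.4%, 21.1% and 13.1% of control, and WWTR1, which encodes TAZ, at 14.2%, 13.2% and 8.70%. The cGAS gene, listed as MB21D1, was at 23.6% of control in cGAS and 18.7% in cGAS_YT cells, and the STING gene, listed as TMEM173, at 7.39% and 6.66% in STING and STING_YT cells. The targeted genes also differed from control under the other siRNAs. In cGAS and STING cells WWTR1 was at 68.9% and 72.4% of control, and YAP1 at 85.2% and 80.8%. MB21D1 was at 87.3% in YT, 64.4% in STING and 61.4% in STING_YT cells. TMEM173 was at 77.4% in YT, 121% in cGAS and 96.8% in cGAS_YT cells. Of 9 muscle and neural markers only MYH11 and MBP were measured, and their summed level was 18.3 to 24.95 CPM in cGAS_YT cells against 2.73 to 9.03 CPM in the other 5 groups, so that it moved with the cGAS_YT group; the other 7 were not analysed here. Of 7 endothelial markers TEK and ESAM were measured, summing to 109 to 115 CPM in YT and 49.8 to 98.9 CPM in the other groups. Of 10 epithelial markers only KRT15 was measured, at 0.317 to 4.77 CPM, and of 7 blood cell markers CD14 and CD68. The part of these markers in the results was not tested.

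YAP and TAZ are transcriptional coactivators that enter the nucleus when the Hippo kinases are inactive and bind DNA mainly through TEAD factors. In fibroblasts they sustain proliferation, matrix and contractile gene programmes. cGAS senses DNA in the cytosol and signals through the adaptor STING to interferon and NF-kB genes. The 8 genes form no single pathway. OXTR encodes the oxytocin receptor, a Gq-coupled receptor best known in uterine smooth muscle, KCNJ2 the inwardly rectifying potassium channel Kir2.1, and CLDN11 a claudin of tight junctions in myelin and testis. SHISA3 encodes a membrane protein that restrains Wnt and FGF receptors, CDC42EP3 an effector of the GTPase CDC42 that binds septins, and RASL11B an atypical RAS-like GTPase. LBH encodes a transcription cofactor downstream of Wnt, and MEST, an imprinted gene expressed from the paternal copy, a hydrolase-like protein.

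Promoter sequence was examined because most of the 8 genes were lowest in the same group. RefSeq promoter windows on GRCh38.p14, from 250 bases before to 50 bases after a transcription start, matched all 8 genes, with 17 windows in all. The TEAD core motif GGAATG, searched on both strands, was in 0 of these 17 windows, compared with 11.5% of 14263 windows of tested genes and 14.03% of all 35116 windows. The AP-1 motif TGANTCA, also searched on both strands, was in 1 of 17 windows, compared with 5.27% and 7.71%. The 2 motifs do not overlap in these windows. That 1 window belongs to MEST (chr7:130486097-130486396, plus strand), with the match starting at base 42 downstream of the start site. It is shown with the window of the most distal OXTR start (chr3:8769564-8769863, minus strand), since these 2 genes had the most similar levels across libraries. Capitals mark the AP-1 match, and the OXTR window holds neither motif. Sites outside these windows were not examined.
MEST: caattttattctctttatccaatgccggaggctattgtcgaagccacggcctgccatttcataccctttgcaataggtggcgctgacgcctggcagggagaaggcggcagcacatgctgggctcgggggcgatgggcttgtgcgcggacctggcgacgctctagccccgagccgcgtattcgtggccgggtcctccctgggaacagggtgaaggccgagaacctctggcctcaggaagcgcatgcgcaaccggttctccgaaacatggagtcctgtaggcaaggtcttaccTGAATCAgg
OXTR: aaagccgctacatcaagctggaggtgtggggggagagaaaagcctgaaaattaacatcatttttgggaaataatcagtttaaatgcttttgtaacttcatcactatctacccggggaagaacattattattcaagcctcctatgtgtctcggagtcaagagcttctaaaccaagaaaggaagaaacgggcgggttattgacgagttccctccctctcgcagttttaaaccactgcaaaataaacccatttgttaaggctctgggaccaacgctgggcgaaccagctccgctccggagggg

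The genes ranked as follows in the comparisons that chose them. Of 927 genes that averaged 5 CPM or more and had a called positive interaction with cGAS siRNA, OXTR, MEST, SHISA3, CDC42EP3, KCNJ2 and LBH held ranks 1 to 6, CLDN11 rank 8 and RASL11B rank 17. The gene at rank 7, B3GALT2, had an interaction of 2.76, between LBH at 2.87 and CLDN11 at 2.73. Of 410 with STING siRNA, CDC42EP3, RASL11B, KCNJ2, LBH, SHISA3 and CLDN11 held ranks 1 to 6, with 2.11 for CLDN11, and HHEX followed at 2.07; MEST and OXTR held ranks 26 and 40. KCNJ2 and CLDN11 also had the 2 largest differences between STING_YT and YT cells. Over all genes tested, 7.5% were called positive for the cGAS interaction and 3.35% for the STING interaction. All 8 genes were called positive in both, which the choice of genes largely fixes and from which nothing is read.

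**Figure D1:**
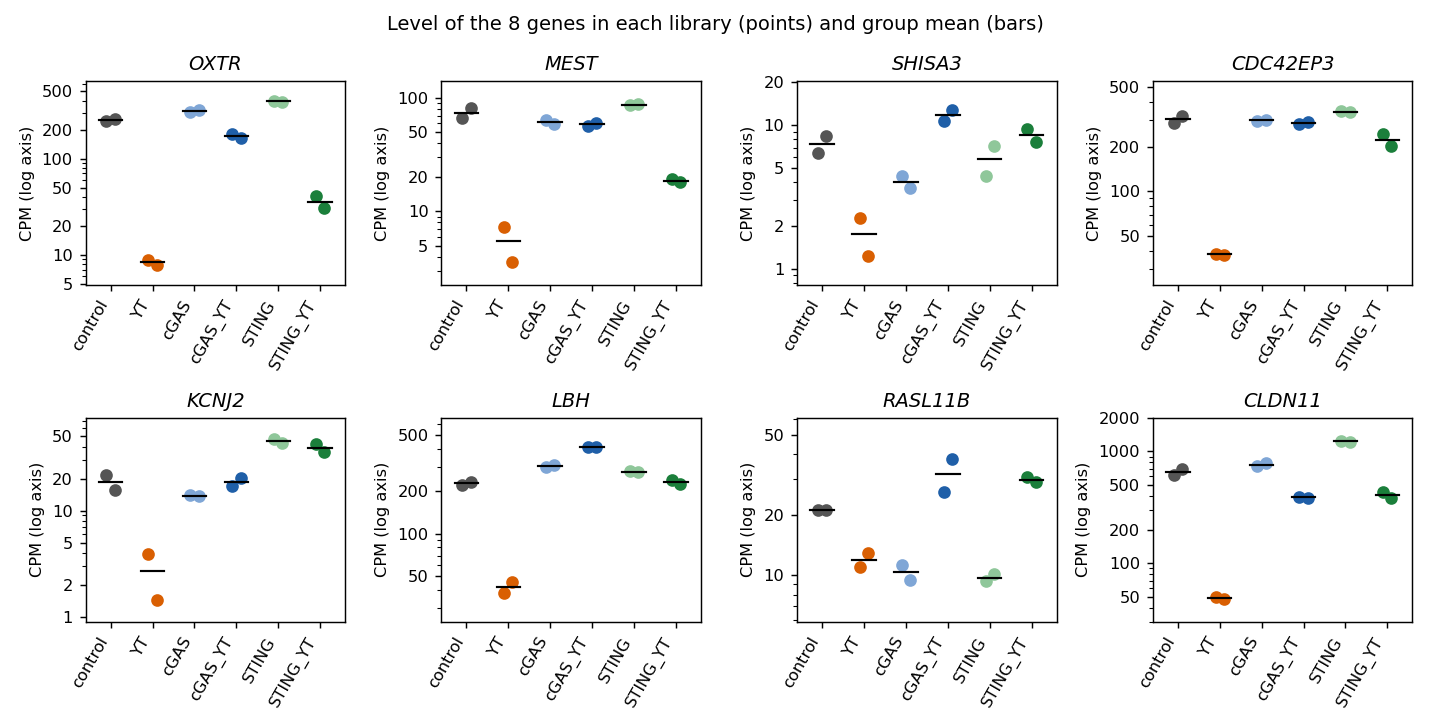
CPM (log axis) of the 8 genes in each of the 12 libraries, 2 points per group, with a bar at the group mean. The YT libraries are the lowest for every gene except RASL11B, which is lowest in the STING group at 9.40 and 10.1 CPM.

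OXTR, the oxytocin receptor gene (chromosome 3, 8750408 to 8769628, minus strand, GRCh38), had its lowest level with the YAP/TAZ siRNAs alone, and the difference they made was smaller with cGAS siRNA. It stood at 246 and 259 CPM in the control libraries and at 8.93 and 7.77 CPM in the YT libraries, or 3.30% of control. In the cGAS background it went from 307 and 319.6 CPM to 179 and 163 CPM, which left 54.5%. In the STING background it went from 399 and 389 CPM to 40.8 and 30.3 CPM, which left 9.01%. The 6 groups did not overlap, in the order STING, cGAS, control, cGAS_YT, STING_YT and YT. The log2 differences made by the YAP/TAZ siRNAs were -4.77 ± 0.11 with control siRNA, -0.87 ± 0.11 with cGAS siRNA and -3.45 ± 0.11 with STING siRNA. The interactions were thus 3.89 ± 0.16 with cGAS and 1.32 ± 0.16 with STING siRNA.

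MEST (chromosome 7, 130486171 to 130506465, plus strand) resembled OXTR. Control libraries had 66.0 and 81.1 CPM, and the YT libraries 7.29 and 3.60 CPM. The cGAS libraries had 63.9 and 59.5 CPM and the cGAS_YT libraries 57.2 and 60.1 CPM, so these groups overlapped and 95.01% of the level was left. The STING libraries had 86.2 and 88.2 CPM and the STING_YT libraries 19.2 and 18.2 CPM, which left 21.4%. With cGAS siRNA the YAP/TAZ difference was -0.07 ± 0.19, against -3.59 ± 0.19 with control and -2.16 ± 0.19 with STING siRNA. The interaction with STING siRNA was 1.42 ± 0.26, and it was 1.85 without YT replicate 3 and 0.997 without YT replicate 4. COPG2, which overlaps the 3′ end of MEST on the opposite strand, stayed between 10.0 and 20.3 CPM in all libraries; whether reads were counted by strand is not given in the sources used here.

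CDC42EP3, the septin-binding CDC42 effector (chromosome 2, 37641882 to 37738468, minus strand), stood at 290.3 and 319.9 CPM in control and at 37.8 and 37.7 CPM in YT libraries. With cGAS siRNA it had 299 and 301 CPM without and 286 and 291 CPM with the YAP/TAZ siRNAs. With STING siRNA it had 345 and 341 CPM without and 243 and 202 CPM with them. The YAP/TAZ siRNAs thus left 12.4% of the level in the first background, 96.1% in the cGAS and 64.8% in the STING background. The control libraries overlapped with the cGAS and cGAS_YT libraries, and all other pairs of groups were apart. The log2 differences were -2.98 ± 0.09, -0.06 ± 0.09 and -0.63 ± 0.09, which gave interactions of 2.92 ± 0.13 with cGAS and 2.35 ± 0.13 with STING siRNA.

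LBH, the Wnt-responsive cofactor (chromosome 2, 30231369 to 30323730, plus strand), had 224 and 231 CPM in control and 38.1 and 45.5 CPM in YT libraries. It was highest in the cGAS_YT libraries, at 412 and 416 CPM, above the 298 and 308 CPM of the cGAS libraries. The STING libraries had 279.5 and 273 CPM and the STING_YT libraries 240.3 and 225 CPM. STING_YT stood at 102% of control and overlapped with it, and YT lay 5.44-fold below control. The YAP/TAZ difference was -2.42 ± 0.09 with control siRNA, 0.45 ± 0.09 with cGAS siRNA and -0.25 ± 0.09 with STING siRNA. The sign of the difference was therefore positive in the cGAS background alone.

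KCNJ2, the Kir2.1 channel gene (chromosome 17, 70168673 to 70180048, plus strand), was lowest in the YT libraries and highest in the STING libraries. Control libraries had 21.5 and 15.7 CPM, cGAS libraries 13.96 and 13.7 CPM and STING libraries 46.8 and 43.1 CPM, so that the STING group stood at 2.42-fold of control, beside 1.89-fold for CLDN11 and 1.56-fold for OXTR. The YT libraries had 3.91 and 1.44 CPM, cGAS_YT 17.1 and 20.4 CPM and STING_YT 42.4 and 35.8 CPM. The cGAS_YT libraries overlapped with control, and the STING_YT libraries lay above control and 14.6-fold above YT. The YAP/TAZ differences were -2.49 ± 0.24, 0.41 ± 0.24 and -0.20 ± 0.24 with control, cGAS and STING siRNA. The interaction with cGAS siRNA was 3.40 without YT replicate 3 and 2.39 without YT replicate 4, and that with STING siRNA 2.79 and 1.78.

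CLDN11, the claudin gene (chromosome 3, 170418865 to 170454733, plus strand), was also higher with STING siRNA alone, at 1251 and 1213 CPM against 614 and 693 CPM in control libraries, or 1.89-fold. The YT libraries had 50.3 and 48.0 CPM, which left 7.52% of control. The cGAS libraries had 743 and 784 CPM and the cGAS_YT libraries 394 and 382 CPM. The STING_YT libraries had 436 and 383 CPM and overlapped with cGAS_YT, while both groups lay below control and well above YT. The YAP/TAZ siRNAs left 50.8% in the cGAS and 33.3% in the STING background, and the interactions were 2.73 ± 0.12 and 2.11 ± 0.12. Of the 8 genes, CLDN11 and OXTR were the 2 that stayed lower with the YAP/TAZ siRNAs by at least 0.87 on the log2 scale in all 3 backgrounds.

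SHISA3 and RASL11B had a negative YAP/TAZ difference with control siRNA and positive values with cGAS and STING siRNA. SHISA3, the Wnt and FGF receptor inhibitor gene (chromosome 4, 42397839 to 42402487, plus strand), had 6.38 and 8.47 CPM in control and 2.27 and 1.23 CPM in YT libraries. With cGAS siRNA it had 4.43 and 3.68 CPM without and 10.7 and 12.7 CPM with the YAP/TAZ siRNAs, a 2.89-fold higher level. With STING siRNA it had 4.46 and 7.13 CPM without and 9.38 and 7.62 CPM with them, or 1.47-fold. STING_YT overlapped with control, and control with STING. At these low levels the pseudocount sets much of the size: the cGAS interaction of 2.96 ± 0.34 was 1.95 with a pseudocount of 4 and 3.61 by edgeR on the recovered reads.

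RASL11B, the RAS-like GTPase gene (chromosome 4, 52862290 to 52866835, plus strand), stood below control in the YT, cGAS and STING groups and above it in cGAS_YT and STING_YT cells. Control libraries had 21.02 and 21.1 CPM, YT libraries 11.04 and 12.9 CPM, cGAS libraries 11.2 and 9.52 CPM and STING libraries 9.40 and 10.1 CPM. The 3 groups below control overlapped with each other in part. The cGAS_YT libraries had 25.8 and 38.0 CPM and the STING_YT libraries 30.6 and 28.96 CPM, and these groups overlapped. The YAP/TAZ siRNAs thus went with 3.08-fold and 3.06-fold higher levels in the cGAS and STING backgrounds and with 56.8% of the level in the control background. The log2 differences were 1.51 ± 0.16, 1.52 ± 0.16 and -0.77 ± 0.16.

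**Figure D2:**
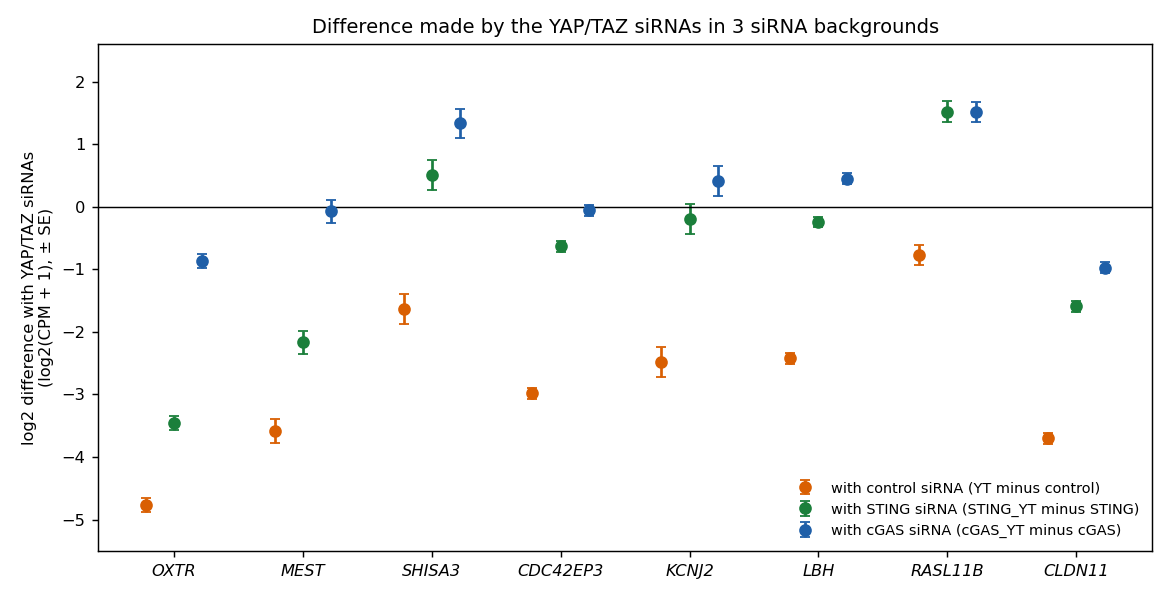
Log2 difference made by the YAP/TAZ siRNAs (vertical axis, log2(CPM + 1), ± SE from limma, 2 libraries per group) for each of the 8 genes with control, STING or cGAS siRNA. The difference with control siRNA is the lowest of the 3 for every gene, from -4.77 for OXTR to -0.77 for RASL11B.

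The 8 genes differed in how far the cGAS and STING backgrounds set them apart. The YAP/TAZ difference with cGAS siRNA exceeded that with STING siRNA by 2.58 ± 0.16 for OXTR and by 2.09 ± 0.26 for MEST. For CDC42EP3, LBH and CLDN11 the excess lay between 0.57 and 0.70, with an SE of 0.12 to 0.13. For SHISA3 it was 0.82 ± 0.34, for KCNJ2 0.61 ± 0.34 and for RASL11B -0.01 ± 0.23, all 3 with a larger SE. With control siRNA all 8 genes were called lower with the YAP/TAZ siRNAs, with a median of -2.73, beside 20.9% of all genes called lower, 20.6% called higher and an overall median of 0.00. The cGAS background had 2 called lower (OXTR and CLDN11), 3 called higher (SHISA3, LBH and RASL11B) and 3 not called, beside 12.7% and 15% of all genes. The STING background had 5 called lower, 1 higher (RASL11B) and 2 not called (SHISA3 and KCNJ2), beside 19.8% and 19.1%. These comparisons enter the interactions that chose the genes, and nothing is read from the counts.

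Residual YAP1 moved with the cGAS results. It was at 24.6 and 21.7 CPM in cGAS_YT libraries and at 16.3 and 13.02 CPM in YT libraries, without overlap, and its own interaction with cGAS siRNA was 0.86 ± 0.19 (limma adjusted p = 0.00516). WWTR1 was at 17.9 and 18.8 CPM in cGAS_YT and 22.8 and 16.7 CPM in YT libraries, which overlapped. In STING_YT libraries YAP1 stood at 12.6 and 16.1 CPM, overlapping with YT, and WWTR1 at 12.7 and 11.4 CPM, below YT. The part of residual YAP1 in the cGAS results was not tested.

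Across the 12 libraries, OXTR and MEST had the most similar log2 levels of any pair among the 8 genes (r = 0.983), followed by CDC42EP3 with CLDN11 (r = 0.962) and with LBH (r = 0.958). RASL11B stood apart, with r from -0.134 with OXTR to 0.73 with SHISA3. All these values share the same libraries and are descriptions over 6 groups of 2. Among 1847 other genes averaging 5 CPM or more and with an SD of at least 0.5, OXTR was most like SEMA6A, a semaphorin gene (r = 0.992), ALDH1B1 and CYR61 (both 0.985). MEST was most like the matrix gene THBS1 (0.986), OXTR and CYR61. CDC42EP3 was most like PMP22, a peripheral myelin protein gene (0.996), SYNC and MTCL1, and CLDN11 most like HEG1 (0.988), IRS2 and SCHIP1. LBH was most like PARD3B (0.974), SDPR and MTCL1, and KCNJ2 most like ARRDC4 (0.952), FIBIN and RMI2. The closest genes to SHISA3 were the muscarinic receptor gene CHRM2 (0.928), PTGER2 and SOCS1, and those to RASL11B were MRVI1 (0.928), THAP9-AS1 and TWIST1. PMP22, for example, was at 109 and 119 CPM in control, 35.6 and 38.2 CPM in YT, 109 and 110 CPM in cGAS_YT and 96.0 and 87.9 CPM in STING_YT libraries.

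The known YAP/TAZ target genes were the nearest comparison. Of 22 such genes, 15 fell and 1 rose with the YAP/TAZ siRNAs in the control background (median -1.07), beside 20.9% and 20.6% of all genes and an overall median of 0.00. In the cGAS background 15 fell and 3 rose (median -0.51), beside 12.7% and 15% of all genes. In the STING background 18 fell and 2 rose (median -0.95), beside 19.8% and 19.1%. The overall median was 0.03 in each of these backgrounds. The interaction with cGAS siRNA was positive for 13 and negative for 2 (median 0.64), beside 7.5% and 5.93% of all genes and an overall median of 0.02. With STING siRNA it was positive for 7 and negative for 2 (median 0.15), beside 3.35% and 4.53%. CYR61, a secreted matricellular protein gene, went from 502 and 454 CPM to 50.6 and 32.8 CPM in the control background, to 268 and 259 CPM in cGAS_YT and to 137 and 139 CPM in STING_YT libraries, with interactions of 2.66 ± 0.19 (adjusted p = 1.24e-07) and 1.57 ± 0.19 (adjusted p = 5.74e-05). CTGF, another secreted matricellular target, had a positive interaction with cGAS siRNA (0.98 ± 0.21, adjusted p = 0.00498), and its value with STING siRNA was -0.07 ± 0.21 (adjusted p = 0.89), and -0.42 (adjusted p = 0.0196) without YT replicate 4. The count of positive STING interactions in the list was 4 without STING replicate 13 and 4 without STING_YT replicate 15, and the 2 negative counts were each 4 without YT replicate 4.

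Relatives and partners of the 8 genes were counted in the same way by limma, and each list's counts and medians are to be read beside those over all genes: with cGAS siRNA 7.5% called positive, 5.93% negative and a median of 0.02, and with STING siRNA 3.35%, 4.53% and 0.00. These shares are for adjusted calls with all libraries. Counts at an unadjusted p under 0.05 have no share of all genes beside them and cannot be set against these shares. Most lists held only 1 to 3 called genes, and leaving out 1 library often changed such a count. In these lists and that of YAP/TAZ targets, counts with a library left out cannot be set against these shares either. The share of all genes called then changed as well. Of 22 genes of Gq signalling, the route of OXTR, the interaction with cGAS siRNA was positive for 2 and negative for 4 (median 0.27), and with STING siRNA positive for 3 and negative for 3 (median 0.04). RGS4, a regulator that shortens Gq signals, rose from 12.7 and 13.7 CPM to 27.3 and 25.2 CPM with the YAP/TAZ siRNAs alone (0.94 ± 0.13, adjusted p = 2.27e-05), and fell with cGAS siRNA present (-0.44 ± 0.13, adjusted p = 0.0174). MYLK, the myosin light chain kinase gene, fell in the control background (-0.40 ± 0.10, adjusted p = 0.00527) and rose in the cGAS background (0.55 ± 0.10, adjusted p = 0.00076). Its level with cGAS siRNA alone was 56.8% of control. Leaving out cGAS replicate 7 left 1 positive and 1 negative cGAS interaction in this list, leaving out control replicate 2 or cGAS_YT replicate 9 left 1 and 2, and leaving out either YT library gave 4 and 4. The positive count was also 1 without cGAS replicate 8, cGAS_YT replicate 10 or either STING library.

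Of 24 CDC42 effectors, kinases and septins, 5 had a positive and 0 a negative interaction with cGAS siRNA (median 0.17), and 1 and 0 with STING siRNA (median 0.01). At an unadjusted p under 0.05 the counts were 10 and 0, and 2 and 2, with no share of all genes at that threshold beside them. CDC42EP4, a relative of CDC42EP3, had both, at 0.73 ± 0.14 (adjusted p = 0.00247) and 0.77 ± 0.14 (adjusted p = 0.0028). It stood at 40.2 and 42.6 CPM in control, 27.8 and 28.4 CPM in YT, 35.9 and 35.5 CPM in cGAS_YT and 62.4 and 53.5 CPM in STING_YT libraries. The cGAS count of 5 was 8 without YT replicate 4, and leaving out cGAS replicate 7 or 8 gave 3 and 2. Without YT replicate 4 the STING count of 1 was 2, and without either YT library 1 gene was negative with each siRNA.

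Of 15 SHISA, frizzled and FGF receptor genes, 3 had a positive and 0 a negative interaction with cGAS siRNA (median -0.05), and 1 and 1 with STING siRNA (median 0.08). At an unadjusted p under 0.05, 3 were positive and 1 negative with cGAS siRNA. FZD2, a Wnt receptor gene, was at 83.0 and 48.6 CPM in YT libraries against 168 and 169 CPM in control, 201 and 182 CPM in cGAS_YT and 137 and 139 CPM in STING_YT libraries. The counts were 5 and 1 with either siRNA without YT replicate 3. The single negative STING call was made in none of the fits without a control, cGAS, cGAS_YT, STING or STING_YT library and not by edgeR, and without YT replicate 4 there were 2 with STING and 1 with cGAS siRNA. Of 15 Wnt target genes 2 were positive and 1 negative with cGAS siRNA (median 0.32), and 0 and 1 with STING siRNA (median 0.13). For the latter, 3 and 2 passed an unadjusted p under 0.05, and edgeR and DESeq2 each called 1 and 1. Without YT replicate 3 the counts were 5 and 1 with either siRNA. The positive cGAS count was 1 without either control library, YT replicate 4, cGAS replicate 7, cGAS_YT replicate 9 or either STING library, and the negative one 0 without cGAS_YT replicate 9. With STING siRNA the counts were 2 and 2 without YT replicate 4, 1 and 1 without control replicate 1, 0 and 0 without STING replicate 13 and 1 and 0 without STING_YT replicate 15.

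Of 23 imprinted genes other than MEST, 2 had a positive and 0 a negative interaction with cGAS siRNA (median 0.01), and 0 and 2 with STING siRNA (median 0.22). At an unadjusted p under 0.05 these were 4 and 1, and 1 and 3. Without YT replicate 3 the called counts were 4 and 1 with cGAS and 3 and 2 with STING siRNA. The positive cGAS count was 1 without cGAS replicate 7 or cGAS_YT replicate 10, and 1 gene was negative without YT replicate 4 or cGAS_YT replicate 9. With STING siRNA 1 gene was positive without control replicate 2, YT replicate 4 or STING replicate 14, and the negative count was 1 without control replicate 1 or any STING or STING_YT library. CPA4, a carboxypeptidase gene, was the larger of the 2, at 1.52 ± 0.22 (adjusted p = 0.000205): it had 14.2 and 21.1 CPM in YT and 75.7 and 74.7 CPM in cGAS_YT libraries. Of 22 RAS-like GTPases other than RASL11B, 2 were positive and 1 negative with cGAS siRNA, and 2 and 2 with STING siRNA (medians 0.06 and 0.06). Without YT replicate 3 these were 6 and 4, and 5 and 4. The positive cGAS count was 0 without control replicate 2 and 1 without any cGAS or cGAS_YT library, and the negative one 2 without YT replicate 4 or cGAS_YT replicate 10. The positive STING count was 0 or 1 without each of the other 11 libraries and 1 by edgeR and DESeq2, and the negative one was 1 without any control, cGAS, STING or STING_YT library. Of 16 other potassium channel genes 0 were positive and 1 negative with each siRNA (medians -0.01 and -0.06), and at an unadjusted p under 0.05, 0 and 2 with cGAS and 2 and 2 with STING siRNA. The single negative call was lost with cGAS siRNA without control replicate 2, cGAS replicate 7 or either cGAS_YT library, and with STING siRNA without control replicate 2 or any STING or STING_YT library. Without YT replicate 4, 1 channel gene was positive with STING siRNA. Of 16 claudin and tight junction genes other than CLDN11, 0 were positive and 2 negative with cGAS siRNA (median 0.08), and 1 and 1 with STING siRNA (median -0.07). At an unadjusted p under 0.05, 2 were positive and 4 negative with cGAS siRNA. The negative cGAS count was 1 without control replicate 2, either cGAS library, cGAS_YT replicate 9 or either STING_YT library, and 1 gene was positive without YT replicate 3. With STING siRNA the counts were 3 and 2 without YT replicate 3 and 2 and 1 without YT replicate 4. The positive one was 0 without STING replicate 14 or STING_YT replicate 15, and the negative one 0 without any control, cGAS, STING or STING_YT library. Apart from the Wnt targets, edgeR and DESeq2 gave the same counts of 0 as limma in these lists. CLDN1, the claudin of skin and other epithelia, ran opposite to CLDN11: it rose with the YAP/TAZ siRNAs alone, from 38.1 and 34.7 CPM to 94.98 and 81.5 CPM (1.25 ± 0.14, adjusted p = 3.14e-06), and its interaction with cGAS siRNA was -1.64 ± 0.20 (adjusted p = 3.61e-05). With cGAS siRNA alone CLDN1 was already at 82.9 and 75.9 CPM. Its YAP/TAZ difference in that background was not called by limma (-0.39 ± 0.14, adjusted p = 0.0518).

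**Figure D3:**
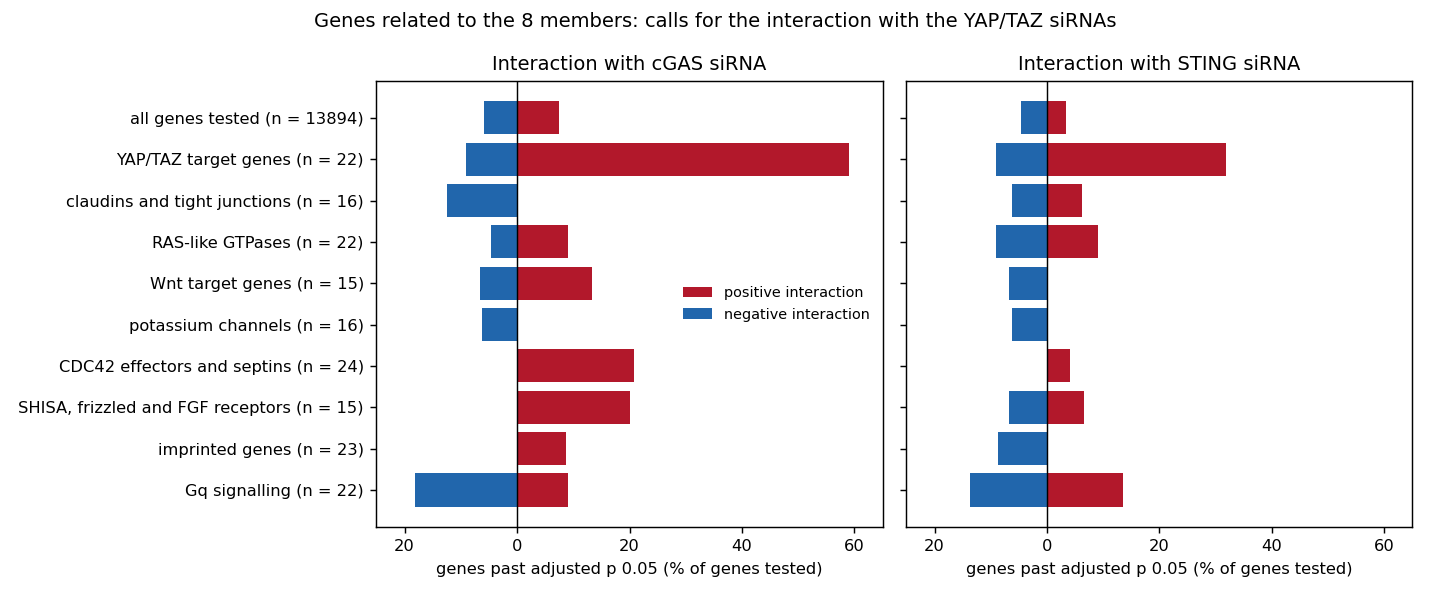
Share of the tested genes of 9 lists, and of all genes, called by limma for a positive (right, red) or negative (left, blue) interaction of the YAP/TAZ siRNAs with cGAS or STING siRNA. The YAP/TAZ target genes have the longest bars, with 13 of 22 positive for cGAS and 7 of 22 for STING siRNA.

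The nearest tested gene on each side of the 8 members on the chromosome was tested to see whether it moved with them. The distance ranged from overlap, as for COPG2 with MEST, to 1850.2 kb for LINC01152 beside KCNJ2. Of 16 such neighbours, 3 had a positive and 0 a negative interaction with cGAS siRNA, and 2 and 0 with STING siRNA (medians 0.08 and 0.04), beside 7.5% and 3.35% of all genes called positive. At an unadjusted p under 0.05 the counts were 5 and 2, and 3 and 1, with no share of all genes at that threshold beside them. By edgeR and by DESeq2 the called counts were 4 and 0, and 3 and 0. LMCD1, a LIM-domain cofactor gene 175.7 kb from OXTR, had interactions of 1.36 ± 0.15 (adjusted p = 1.29e-05) and 0.66 ± 0.15 (adjusted p = 0.0113), the second with an adjusted p of 0.0626 without STING replicate 14 and 0.0621 without STING_YT replicate 15. LCLAT1, a lysocardiolipin acyltransferase gene 123.5 kb from LBH, had 1.13 ± 0.18 (adjusted p = 0.000407) and 0.62 ± 0.18 (adjusted p = 0.0434). The second value was not called under most alternatives, among them the constant prior (adjusted p = 0.0726) and without control replicate 2 (adjusted p = 0.14).

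KCNJ2-AS1, which overlaps the start of KCNJ2 on the opposite strand, had 0.360 to 1.82 CPM outside the 2 STING siRNA groups and 1.98 to 5.83 CPM in them. Its interaction with cGAS siRNA was 1.27 ± 0.35 (adjusted p = 0.0242). The interaction was not called without control replicate 1, YT replicate 4, cGAS replicate 7 or cGAS_YT replicate 9. KCNJ2-AS1 and KCNJ2 overlap at their starts, while their annotated 3′ ends lie apart and outside the overlap. Only reads within the overlap cannot be told apart if strand was not used. SLC7A14, which ends 4.8 kb beyond CLDN11 on the opposite strand, had 6.23 and 4.602 CPM in control, 0.264 and 0 CPM in YT, 24.7 and 25.6 CPM in STING and 5.66 and 5.44 CPM in STING_YT libraries. Its limma interactions of 0.77 ± 0.36 with cGAS and 0.50 ± 0.36 with STING siRNA were not called (adjusted p = 0.184 and 0.459). They were called by limma with a pseudocount of 0.25, at 1.96 and 1.83 (adjusted p = 0.0178 and 0.0383). On the recovered reads edgeR called both, at 3.27 and 3.13 (adjusted p = 0.00968 and 0.0178). DESeq2 also called both, at 3.32 and 3.18 (adjusted p = 0.000374 and 0.000902). The level of 0 in YT replicate 4 allows up to 0.154 CPM, the worth of 3 reads, which covers counting error only.

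**Figure D4:**
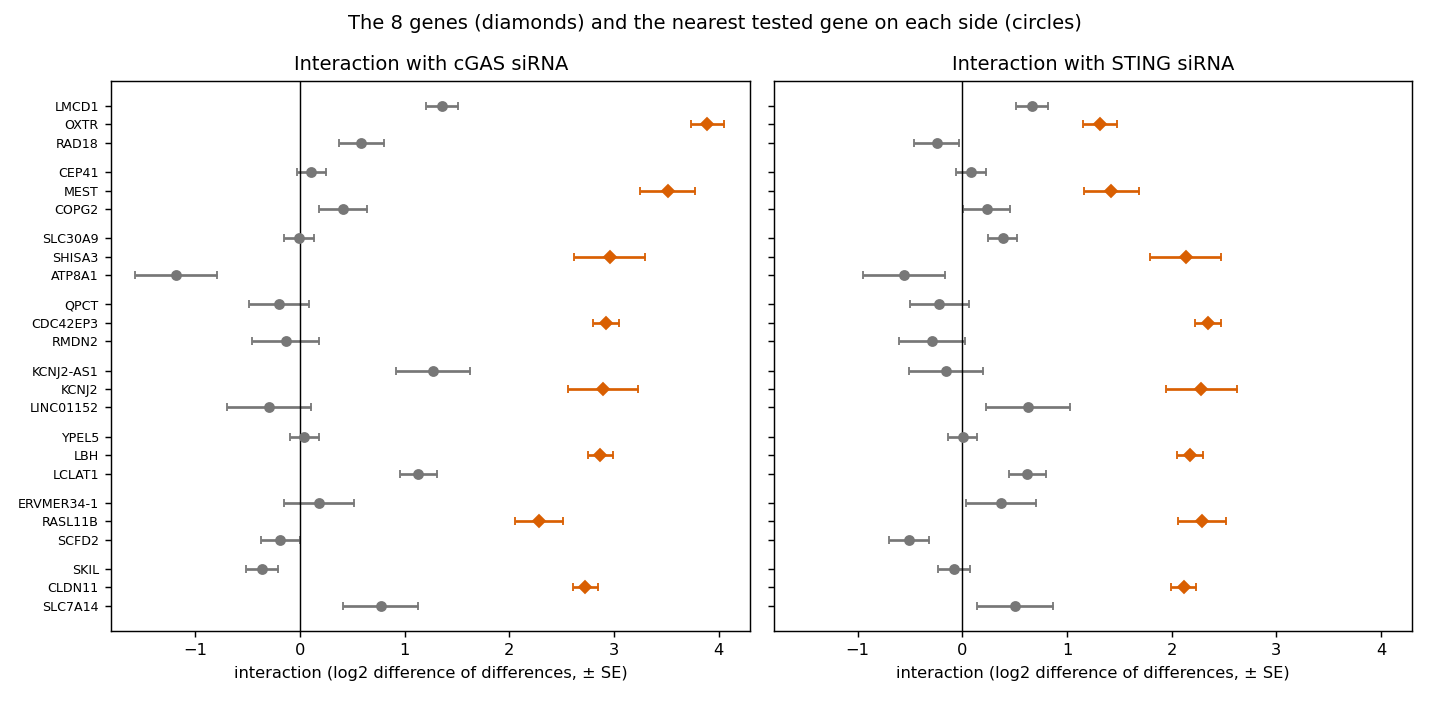
Interaction of the YAP/TAZ siRNAs with cGAS (left) and STING siRNA (right), as a log2 difference of differences ± SE, for the 8 genes (diamonds) and the nearest tested gene on each side of each (circles). The 8 chosen genes lie between 1.32 and 3.89, and of the neighbours LMCD1 reaches 1.36 at most in this limma fit.

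The YT libraries differed from each other in several of the 8 genes, and the number of genes called depended on single libraries. Without YT replicate 3 the interactions were called for 3248 genes with cGAS and 2539 with STING siRNA, beside 1866 and 1095 with all libraries. The shares called positive were then 13.9% and 9.64%. Without cGAS replicate 7 or 8 the cGAS interaction was called for 1106 and 1183 genes, and leaving out any 1 STING or STING_YT library gave 550 to 675 genes for the STING interaction. Among the 8 genes, leaving out YT replicate 3 or 4 kept every interaction positive, the lowest being 0.997 for MEST with STING siRNA. That sign too is largely fixed by the choice of genes, and nothing is read from it.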

How the data were processed

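RNA of 12 WI-38 libraries was sequenced from its 3′ ends. The aligner STAR 2.5.3a, the counter featureCounts, edgeR and hg38 appear in the submitters' processing notes; no source used here gives the strand setting or the annotation. The authors deposited 1 signal value per gene and library, taken here as CPM scaled by TMM factors. Of these values 100% were whole multiples of 1 read within a tolerance of 0.01 reads, which gave back whole reads. The values show a scaling factor for each library but not its kind. No per-sample columns were left out.

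Groups came from the titles. limma 3.58.1 (R 4.3.3), with a prior that follows the mean level, was fitted to log2(CPM + 1) of the 13894 genes reaching 1 CPM in 2 or more libraries, with 6 residual and 10.1 prior degrees of freedom. The main comparisons were the YAP/TAZ siRNAs in the control, cGAS and STING backgrounds and their 2 interactions. The planned test assumed plain CPM and was left as it was. A planned test of OXTR and MEST in the STING background is not reported, because those libraries entered the choice of genes. Positions are from GENCODE release 29 on GRCh38, in which 12571 of 13937 symbols (90.2%) were found; the authors' annotation may differ. Promoter windows came from RefSeq.

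The members, gene lists and named genes were chosen with earlier results of these data known. Named genes were the members, the targeted genes, up to 2 genes of each list by smallest p for the cGAS and 1 for the STING interaction among called genes averaging 5 CPM or more, 3 most alike genes and 2 chromosomal neighbours per member, and CYR61, CTGF and ANKRD1. Ranks use the same minimum. B3GALT2, HHEX and the markers were named after their values were seen. The alternatives tried were a constant prior, a pseudocount of 0.25 or 4, a filter at 5 CPM or none, median-of-ratios scaling, fits restricted to the compared groups, leaving out each library (a lone sample is then assumed to vary like the other groups), and edgeR 4.0.16 and DESeq2 1.42.0 on the recovered reads; counts by list under these were added after seeing the data. The code was tested on simulated counts.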

Additional observations from a re-analysis of the deposited data

Results flagged for a closer look

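In the following genes related to the 8 members, the effect of the YAP/TAZ siRNAs differed between backgrounds by the limma interaction test, with adjusted p-values over all genes; no explanation was tested. The interaction was negative for RGS4, the Gq regulator, with cGAS (-1.38, adjusted p = 7.41e-05) and with STING siRNA (-1.20, adjusted p = 0.000539), and positive with cGAS siRNA for MYLK (0.95, adjusted p = 0.000291). Among imprinted genes, CPA4 (1.52, adjusted p = 0.000205) and BLCAP (0.49, adjusted p = 0.0173) were positive with cGAS siRNA, and PHLDA2 (-0.75, adjusted p = 0.00167) was negative with STING siRNA. The BLCAP call was lost without cGAS replicate 7 (adjusted p = 0.0819), without cGAS_YT replicate 10 (0.0531) and in a fit of only the groups compared (0.0516). The Wnt receptor genes FZD2 (1.29, adjusted p = 0.000994) and FZD7 (1.47, adjusted p = 0.00304) were positive with cGAS siRNA, and FZD2 with STING siRNA too (1.16, adjusted p = 0.00392; 0.0528 with a constant prior). The FZD7 level was 153 CPM in YT replicate 3 and 70.4 CPM in replicate 4.

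CDC42EP4 was positive with both siRNAs (0.73 with cGAS, adjusted p = 0.00247, and 0.77 with STING, adjusted p = 0.0028), and the septin gene SEPT7 with cGAS siRNA (0.47, adjusted p = 0.00678). Among Wnt target genes, TCF7L2 (0.56, adjusted p = 0.00427) and DKK1 (0.94, adjusted p = 0.0343) were positive with cGAS siRNA and CCND1 (-0.55, adjusted p = 0.00927) was negative with STING siRNA. The CCND1 call was lost with a constant prior (adjusted p = 0.0669), without STING replicate 13 (0.0644) and without STING_YT replicate 15 (0.0727). DKK1 was at 1.80 and 1.13 CPM in YT libraries, and its call was lost with a pseudocount of 4 (0.29, adjusted p = 0.394), without control replicate 2 (adjusted p = 0.122), without cGAS replicate 7 (adjusted p = 0.165) and without cGAS_YT replicate 9 (adjusted p = 0.151), among others. RALA was negative with both siRNAs (-0.84, adjusted p = 0.000397, and -0.78, adjusted p = 0.00127), and RRAS2 positive with cGAS siRNA (0.68, adjusted p = 0.0108). The RRAS2 call was lost without control replicate 2 (adjusted p = 0.0636), cGAS replicate 8 (0.0567) or cGAS_YT replicate 9 (0.0549). CLDN1 was negative with both (-1.64, adjusted p = 3.61e-05, and -0.72, adjusted p = 0.0392), the second not called with a constant prior (adjusted p = 0.133) or without any 1 control, cGAS, STING or STING_YT library (adjusted p = 0.0549 to 0.178). CYR61 was positive with both (2.66, adjusted p = 1.24e-07, and 1.57, adjusted p = 5.74e-05), and AMOTL2 with cGAS siRNA (1.43, adjusted p = 1.6e-06).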

How the results depend on the processing

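All 336 values of the 16 member interactions under 21 alternatives were positive, and 58 moved by more than the fitted spread between replicates. The choice of genes by large positive interactions in these same libraries largely fixes this sign, and nothing is read from it. SHISA3 and KCNJ2, the members of low level, moved most with the pseudocount: with a pseudocount of 4 the cGAS interactions were 1.95 and 2.12. Of the counts of called genes, that of the YAP/TAZ siRNAs in the control background was 3784 in a fit of only the groups compared, beside 5773, and that of the STING interaction 703 with a constant prior, beside 1095. Leaving out each library in turn gave 2256 to 4851 genes for the YAP/TAZ siRNAs with cGAS siRNA, beside 3848, 1106 to 3248 for the cGAS interaction and 550 to 2539 for the STING interaction. The lowest were without cGAS_YT replicate 10, cGAS replicate 7 and STING_YT replicate 15, and the highest without YT replicate 3; the cause was not tested. No paired analysis was possible because each replicate number occurs in 1 group only.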
